A study of Mus musculus with 6 samples.

Results

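The 10 genes described here are products of eosinophils, mast cells and basophils, measured in macrophages grown from the bone marrow of Bach1 KO and WT mice. They are the granule proteases Mcpt8, Prss34, Mcpt4 and Cpa3, the receptor genes Fcer1a, Ms4a2 and Kit, the transcription factor Gata2, and the eosinophil granule genes Epx and Prg2. They were picked by name, with their levels, their shifts between arrays and their KO minus WT differences on these same arrays in view, so those differences are given as a description. No p-value is given for them, and whether a member passed the threshold of the fit over all genes is stated as part of that description and is no test of the choice. Each of the 10 genes is read by 1 probe, among 55681 probes and 20018 gene symbols on the array. Of the 10, 8 passed the filter on dim probes and stand among the 15736 genes tested.

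The study compared 3 Bach1 KO mice, numbered 947, 948 and 949, with 3 WT mice, numbered 1, 2 and 3. Bach1 is a heme-binding transcriptional repressor. All mice were C57BL/6 and 11 weeks old, and each genotype is labelled as 2 males and 1 female. Bone marrow cells of every mouse were cultured for 5 days with GM-CSF (granulocyte/macrophage colony stimulating factor) at 10 ng/mL and fetal bovine serum at 10%, and RNA of each culture was put on 1 one-colour Agilent array. The labels call the cells macrophages, describe no sort, and do not say how the Bach1 allele was made.

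Eosinophils, mast cells and basophils are granulocytes of allergic and parasite responses, and all arise from bone marrow progenitors in which Gata2 acts. Mast cells and basophils store proteases in granules and carry the high-affinity IgE receptor, while eosinophils store a peroxidase and basic proteins. GM-CSF sustains myeloid progenitors and eosinophils as well as macrophages, so a bulk bone marrow culture can hold RNA of all these cells. In such RNA, fewer cells of a type and less RNA per cell cannot be told apart.

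All levels are log2 signals relative to the 75th percentile of their own array, so 0 is the brightness of that percentile, and levels are compared between arrays. Different probes are set beside each other only where a list is summed or a probe is called bright or dim. A spot was counted as measured where the scanner software marked it well above background, which held for 62.5% to 65.1% of spots on KO arrays and for 70.3% to 73.2% on WT arrays. The lowest level so marked was between -6.16 and -5.68. No spot was saturated. KO 947 lay on the same slide as the 3 WT mice, and KO 948 and KO 949 lay on the other slide.

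The sex labels and the data disagreed. The Y-linked genes Eif2s3y and Ddx3y were at 3.56 and 0.92 in WT 3, which is labelled female, close to their levels in the mice labelled male. KO 949, labelled female, had them at -7.75 and -7.61, neither measured. On 1 Xist probe, Xist being transcribed from the inactive X chromosome, KO 949 was at -2.42 and KO 948, labelled male, at -3.15, while WT 3 was at -7.88 and not measured. KO 948 also carried both Y-linked transcripts, at 3.57 and 1.09. A second Xist probe gave another order, with KO 948 at -7.65 and not measured, KO 949 at -3.57 and WT 1, labelled male, at -3.88. The probe of Y-linked Kdm5d did not separate the mice, at -4.43 in KO 949 and -5.14 in WT 3. The genotype labels could not be checked in the same way, because no source used here places the Bach1 probe inside or outside the deletion. That probe read 1.45, 2.00 and 2.23 in KO 947, 948 and 949, against 2.21, 2.48 and 2.59 in WT 1, 2 and 3.

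The 250 bases before the start sites of 5 of the genes are shown because these genes stand for the 3 patterns over mice in the values, with Mcpt8 and Prss34 low in every KO mouse, Cpa3 and Mcpt4 highest of the KO mice in KO 947, and Epx lowest in KO 949. The sequences are from RefSeq on GRCm38.p6, and run 5′ to 3′ on the strand of the gene. The stretches are chr17:25298144-25298393 on the plus strand for Prss34, chr3:20242182-20242431 on the minus strand for Cpa3 and chr14:56062311-56062560 on the minus strand for Mcpt4. For Mcpt8 the stretch is chr14:56085198-56085447 and for Epx chr11:87875537-87875786, both on the minus strand. Capitals mark a GATA word, meaning AGATAA on either strand or the like spelling TGATAA, the spelling AGATAG or the spelling TGATAG.
Prss34: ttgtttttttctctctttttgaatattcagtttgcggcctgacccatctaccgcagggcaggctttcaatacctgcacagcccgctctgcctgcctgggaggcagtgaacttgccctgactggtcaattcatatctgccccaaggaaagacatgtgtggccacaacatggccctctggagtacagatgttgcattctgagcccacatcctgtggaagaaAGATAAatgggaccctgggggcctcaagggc
Cpa3: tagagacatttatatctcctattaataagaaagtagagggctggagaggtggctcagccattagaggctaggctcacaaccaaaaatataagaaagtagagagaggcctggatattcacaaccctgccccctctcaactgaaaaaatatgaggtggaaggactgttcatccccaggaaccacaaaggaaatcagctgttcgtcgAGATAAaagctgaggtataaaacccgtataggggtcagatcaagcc
Mcpt4: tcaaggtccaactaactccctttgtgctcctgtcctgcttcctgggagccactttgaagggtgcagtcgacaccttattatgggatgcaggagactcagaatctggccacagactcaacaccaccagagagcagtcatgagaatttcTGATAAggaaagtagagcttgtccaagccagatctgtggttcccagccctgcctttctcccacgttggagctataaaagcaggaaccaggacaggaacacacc
Mcpt8: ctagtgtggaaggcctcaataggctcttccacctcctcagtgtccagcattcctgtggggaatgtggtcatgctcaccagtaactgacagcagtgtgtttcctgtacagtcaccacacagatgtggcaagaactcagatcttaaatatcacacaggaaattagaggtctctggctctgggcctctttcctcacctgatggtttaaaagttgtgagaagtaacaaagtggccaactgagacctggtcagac
Epx: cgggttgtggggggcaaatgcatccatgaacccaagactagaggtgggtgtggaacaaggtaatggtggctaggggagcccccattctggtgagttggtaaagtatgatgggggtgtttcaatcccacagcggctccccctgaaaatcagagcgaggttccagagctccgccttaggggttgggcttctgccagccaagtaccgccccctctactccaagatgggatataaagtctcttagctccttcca
A GATA word, the letters that GATA family factors such as Gata2 bind, stood in the stretch of 5 of the 9 genes with a RefSeq start site in the table used. They were Prss34, with the word beginning 31 bases before the start, Cpa3 at 46, Mcpt4 at 103, Fcer1a at 92 and Ms4a2 at 224, 37 and 11 bases. Of 32851 mouse promoters of the same length, 26.5% held such a word. The Mcpt8, Kit, Gata2 and Epx stretches held none, which says only that these letters are not in those windows.

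Other words searched on both strands were the E-box CACATG, the AP-1 core TGAGTCA and the ETS word GAGGAA, and none of their matches overlapped a GATA word. CACATG stood in the Prss34 and Fcer1a stretches and in 12.3% of all promoters. GAGGAA stood in the Mcpt8, Fcer1a and Kit stretches and in 23.3% of all promoters, and TGAGTCA in none of the 9 genes and in 4.46% of all promoters. Of the genes called lower in KO, Prss34 held a GATA word, and Mcpt8 and Kit held none.

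**Figure D1:**
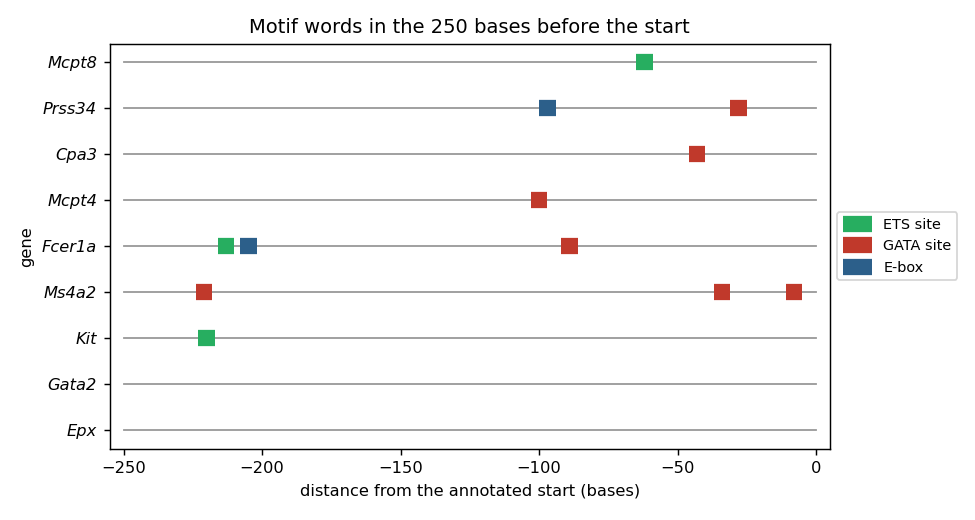
Positions of the searched words in the 250 bases before the start sites of the 9 genes, with the distance from the start site in bases on the horizontal axis and 1 line per gene. Bars mark the words, coloured by motif, and GATA words appear on the lines of Prss34, Cpa3, Mcpt4, Fcer1a and Ms4a2.

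RNA levels of Mcpt8, Prss34 and Kit were lower in Bach1 KO than in WT cultures. These 3 of the 8 tested members were called lower in KO and none higher at an adjusted p under 0.05 (limma, Benjamini-Hochberg), whereas 2.27% of all 15736 genes were called lower and 1.14% higher. All 8 tested members had a difference below 0, as did 50.8% of all genes. In 4 of the 8, Mcpt8, Prss34, Kit and Prg2, every KO value lay below every WT value, which 13.5% of all genes showed, while in 13.4% every KO value lay above every WT value. The median difference of the 10 members was -2.87, against -0.01 over all genes tested. Since the members were picked with this contrast in view, nothing is read from these counts. Mcpt8 also passed the filter on dim probes only through WT, the genotype in which it was high, so it had to differ. KO arrays had 6, 7 and 5 of the 10 members measured (947, 948, 949), against 8, 9 and 9 on WT arrays (1, 2, 3). The share of all spots measured was also lower on KO arrays, and its part in the members' values was not tested.

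**Figure D2:**
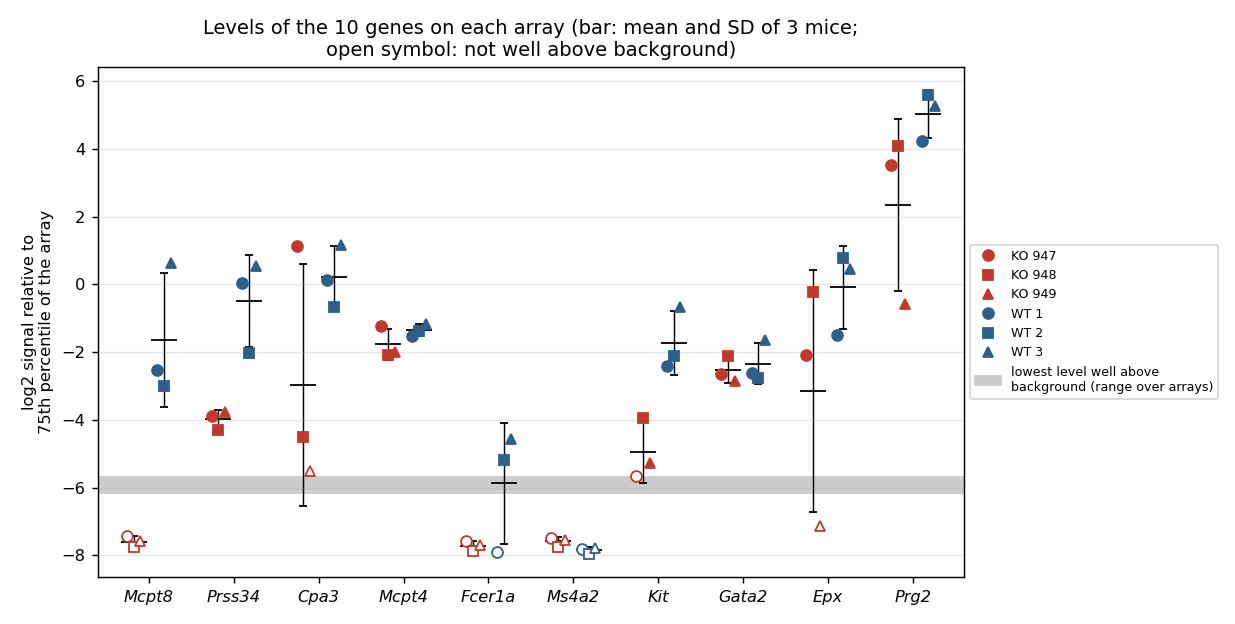
Log2 level of each of the 10 genes in each mouse relative to the 75th percentile of its array, with KO left of WT. Each point is 1 mouse, and open symbols mark spots not well above background. Mcpt8, Prss34 and Kit are lower in every KO mouse than in any WT mouse, Cpa3 is as high in KO 947 as in WT, and Epx and Prg2 are lowest in KO 949.

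Mcpt8 encodes a serine protease that in mice marks basophils. Its level was -7.43, -7.76 and -7.57 in KO 947, 948 and 949, against -2.53, -3.01 and 0.63 in WT 1, 2 and 3. No KO array measured it and every WT array did, with WT 3 far above the other WT mice. The difference was -5.95 ± 0.89 (SE, n = 3 mice per genotype), and Mcpt8 was at least 19.98-fold lower in KO when the lowest measurable level of each KO array is taken as its value there. With normexp background correction, which here used median spot signals, added an offset and was followed by quantile normalization, the difference was -2.70. It did not pass the threshold. Without WT 1, KO 948 or KO 949 Mcpt8 no longer passed the threshold, at differences of -6.40, -5.87 and -5.96.

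Prss34 encodes another serine protease of basophils and of some mast cells. KO 947, 948 and 949 had levels of -3.87, -4.29 and -3.77, against 0.05, -2.03 and 0.53 in WT 1, 2 and 3. The KO mice lay within 0.53 of each other and all below the WT mice, among which WT 2 was the lowest. The difference was -3.49 ± 0.63 (SE, n = 3 each), or 11.3-fold lower in KO. Of the fits that leave out a mouse, it passed the threshold only without WT 2, when it was -4.27. Leaving out WT 1, WT 3, KO 947, KO 948 or KO 949 gave -3.23, -2.99, -3.55, -3.33 and -3.60, none of them past the threshold.

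Kit, the receptor for stem cell factor on mast cells and their progenitors, completed the genes called lower in KO. Its levels were -5.66, -3.94 and -5.28 in KO 947, 948 and 949, against -2.40, -2.12 and -0.66 in WT 1, 2 and 3. KO 947 was not well above background for Kit, KO 948 stood highest of the KO mice, and the genotypes did not overlap. The difference was -3.23 ± 0.59 (SE, n = 3 each), or 9.39-fold lower in KO. Of the fits that leave out a mouse, Kit passed the threshold only without KO 948 (-3.74). Its difference was -3.57, -3.43, -2.70, -2.88 and -3.07 without WT 1, WT 2, WT 3, KO 947 and KO 949.

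Normexp background correction also gave smaller differences for Kit (-2.09, still past the threshold), Cpa3 (-2.07) and Epx (-1.96). With the slide as a block, which leaves KO 947 as the KO mouse set against WT, the differences of Mcpt8, Prss34 and Kit were -5.80, -3.39 and -3.93, and none passed the threshold. All 3 genes were thus low also in the KO mouse that shared the slide of the WT mice. The authors' deposited table of log2 values, which holds probes that separate the genotypes, contains Mcpt8 and Prss34 of the 10 genes, with differences of -5.93 and -3.48.

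Cpa3 and Mcpt4, granule proteases of mast cells, followed another order of mice. Cpa3, a carboxypeptidase, was at 1.13, -4.52 and -5.51 in KO 947, 948 and 949, against 0.12, -0.66 and 1.17 in WT 1, 2 and 3. KO 947 lay inside the WT range, KO 948 and KO 949 lay far below it, and Cpa3 was not well above background in KO 949. KO 947 exceeded KO 948 by 5.64 on the log2 scale, or 50.01-fold. Of 15701 genes with a value on every array, 2, Cpa3 and Serp2, stood at least that far above the nearer KO mouse in KO 947.

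The KO minus WT difference of Cpa3 was -3.18 ± 1.64 (SE, n = 3 each) and did not pass the threshold. It was -5.22 and passed without KO 947, and was -2.40 without KO 948 and -1.90 without KO 949. Mcpt4, a chymase of connective tissue mast cells, was at -1.24, -2.10 and -1.98 in KO 947, 948 and 949, against -1.52, -1.36 and -1.17 in WT 1, 2 and 3. KO 947 again lay with the WT mice, and the difference was -0.42 ± 0.26 (SE, n = 3 each). With the slide as a block both differences turned positive, to 0.92 for Cpa3 and 0.11 for Mcpt4, and for KO 947 the mouse and the slide cannot be told apart.

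Fcer1a and Ms4a2, the IgE receptor chains among the members, were near or below the detection limit. Fcer1g, a chain of that receptor that is not a member, was measured in every mouse, with means of 7.52 in KO and 7.56 in WT. Fcer1a, the chain of the high-affinity receptor that binds IgE, was at -7.58, -7.88 and -7.69 in KO 947, 948 and 949, against -7.89, -5.19 and -4.55 in WT 1, 2 and 3. It was measured in WT 2 and WT 3 only, failed the filter, and was at least 1.06-fold lower in KO. Ms4a2, the signalling beta chain of the same receptor, was measured on no array, with values from -7.95 to -7.48, so it has no order and no fold.

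Gata2, a transcription factor required for mast cells and basophils and active in blood progenitors, was measured in every mouse. Its levels were -2.65, -2.10 and -2.84 in KO 947, 948 and 949, against -2.63, -2.76 and -1.66 in WT 1, 2 and 3. The genotypes overlapped, with WT 3 the highest of all mice. The difference was -0.18 ± 0.34 (SE, n = 3 each). It was 0.16 without WT 3 and 0.033 when arrays were scaled to their median, so Gata2 has no settled direction here.

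Epx and Prg2, the eosinophil granule genes, were low in KO 949 above all. Epx, eosinophil peroxidase, was at -2.09, -0.21 and -7.14 in KO 947, 948 and 949, against -1.50, 0.77 and 0.47 in WT 1, 2 and 3. It was not well above background in KO 949, whereas KO 948 lay inside the WT range. Taking the lowest measurable level of KO 949 as its value there, KO 947 was at least 16.1-fold and KO 948 at least 59.4-fold above it. The KO minus WT difference was -3.06 ± 1.68 (SE, n = 3 each), and -1.06 without KO 949. It did not pass the threshold.

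Prg2, the major basic protein of eosinophil granules, was at 3.51, 4.09 and -0.58 in KO 947, 948 and 949, against 4.22, 5.60 and 5.25 in WT 1, 2 and 3. All KO values lay below all WT values, with KO 948 just below WT 1. KO 949 was 17.0-fold below KO 947, and 8 of 15701 genes, Prg2 among them, lay at least as far below the other KO mice in KO 949. The difference was -2.68 ± 1.18 (SE, n = 3 each) and did not pass the threshold. Without KO 949 it was -1.22. With the slide as a block, which sets KO 947 against the WT mice, the difference was -1.51 for Prg2 and -2.01 for Epx. Among the largest gaps in KO 949 were also the Y-linked Eif2s3y and Ddx3y and the eosinophil gene Prg3, which was not well above background there and at least 31.6-fold below KO 947.

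**Figure D3:**
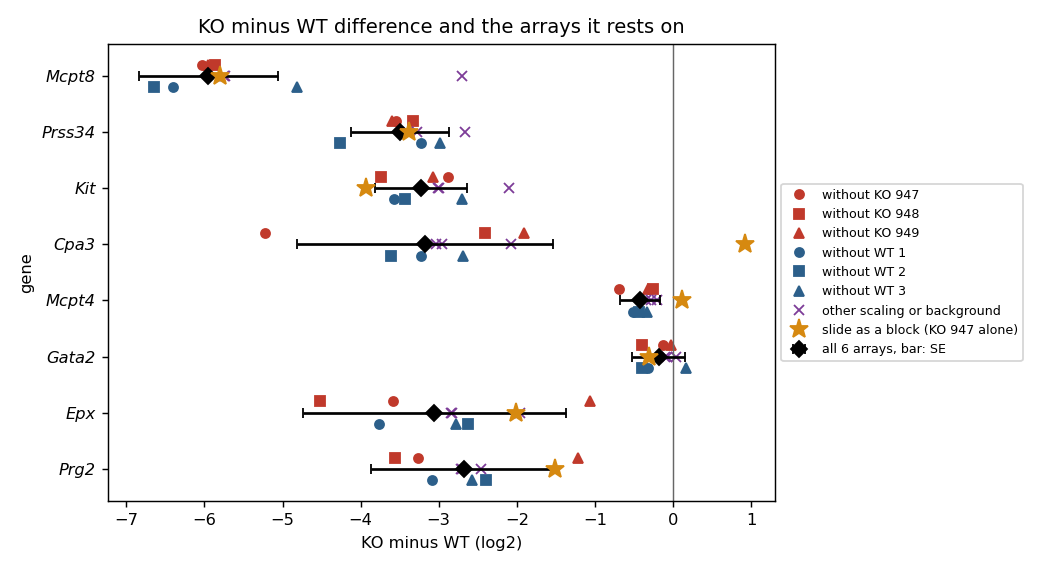
KO minus WT difference of each tested gene on the log2 scale, with all mice (diamond, bar for the SE), without each mouse in turn, under other scalings or background corrections, and with the slide as a block. Mcpt8, Prss34 and Kit stay below 0 throughout, Cpa3 and Mcpt4 cross 0 with the slide as a block, Gata2 crosses it without WT 3, and Epx and Prg2 come closer to 0 without KO 949.

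Members differed in how far mice of a genotype lay apart. The median SD within a genotype was 1.19 over the tested members, while over all genes it was 0.24 in KO and 0.22 in WT. Mcpt8 in KO (SD 0.16, none measured) and Mcpt4 in WT (SD 0.18) lay below those medians, and the KO SDs of Cpa3, Kit and Epx include a mouse not well above background. Among WT mice, WT 3 was the highest for 6 of the 8 tested members, against 35.1% of all genes, and WT 2 was the highest for Epx and Prg2. Mcpt8 in WT 3 was 8.95-fold above WT 1, the nearer WT mouse, and 3 of 15701 genes, Mcpt8 among them, stood at least as far above the other WT mice in WT 3.

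**Figure D4:**
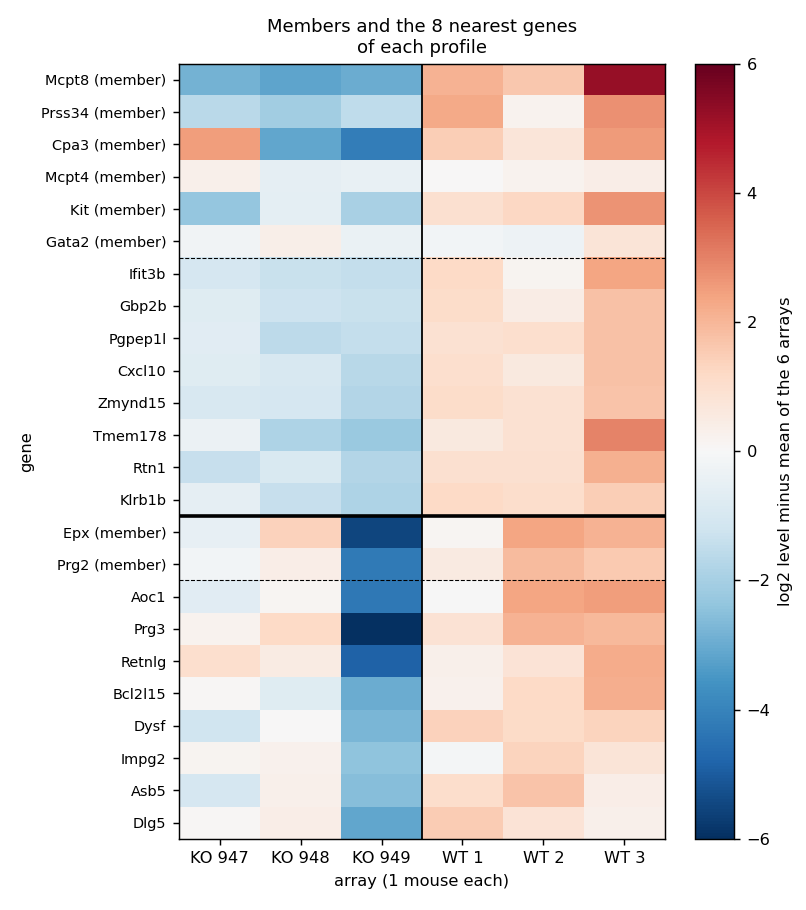
Colour gives the log2 level of each gene (rows) in each mouse (columns, KO left of WT) minus its mean over all 6 mice, for the tested members and the 8 genes nearest to each of their mean profiles. Mcpt8, Prss34 and Kit are below their mean in every KO mouse, Cpa3 is above its mean in KO 947, and Epx and Prg2 are lowest in KO 949.

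Genes with a profile most like the mean of the 6 tested mast cell and basophil members were, by root-mean-square distance over the 6 arrays, Ifit3b (0.30), Gbp2b (0.37), Pgpep1l (0.37), Cxcl10 (0.37), Zmynd15 (0.40), Tmem178 (0.41), Rtn1 (0.42) and Klrb1b (0.43). The median gene was at 1.53. Pgpep1l read -7.07, -7.95 and -7.79 in KO 947, 948 and 949, below the lowest measured level of each of those arrays. The members themselves lay 0.70 (Prss34) to 1.75 (Mcpt8) from their mean, with Cpa3 at 1.73, so the mean is no profile that all of them share. Ifit3b was at -1.61, -1.94 and -2.05 in KO 947, 948 and 949, against 0.57, -0.46 and 1.74 in WT 1, 2 and 3. Like Mcpt8 and Prss34, it was lower in every KO mouse and highest in WT 3. With quantile normalization 5 of these 8 genes were again among the 8 nearest.

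Near the mean of Epx and Prg2 stood Aoc1 (0.54), Prg3 (0.65), Retnlg (0.80), Bcl2l15 (1.11), Dysf (1.19), Impg2 (1.22), Asb5 (1.22) and Dlg5 (1.24), with the median gene at 2.35. In KO 949 all 8 read between -7.75 (Impg2) and -7.02 (Retnlg). The lowest measured level of that array was -6.11, so their shared low in KO 949 is a reading below detection. Prg3, a homologue of Prg2, was at -1.12, -0.14 and -7.59 in KO 947, 948 and 949, against -0.45, 0.74 and 0.60 in WT 1, 2 and 3. Like Epx, it was not well above background in KO 949 and was highest in WT 2. With quantile normalization 6 of these 8 were again among the nearest. The 100 genes nearest to each profile held 3 of the listed cell type genes for the mast cell and basophil members (Ctsg, Cd83 and Ccr7) and 4 for the eosinophil members (Prg3, Retnlg, Cd3g and Cxcr2).

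Counted over all those tested, other listed genes of the same lineages had no common direction. Of 92 listed genes in 7 lists, 80 were tested, 1 rose and 1 fell, so 2.5% were called beside 3.41% of all genes. Their median difference was 0.04, with 39 below 0. The lists hold bright genes such as Fcer1g and Cd63, at KO means of 7.52 and 7.44. The median thus does not speak for genes restricted to these lineages, which were not tested as a set. The largest differences were falls, in Prg3 (-3.25), Slc18a2 (-2.41), Mrgprb1 (-1.48) and Il5ra (-1.34), and the largest rise was in Ccl3 (0.90). The 11 tested mast cell granule and mediator genes had a median of -0.22, and only Ltc4s, leukotriene C4 synthase, rose, by 0.86 ± 0.16 (adjusted p = 0.0447, limma with Benjamini-Hochberg over all genes). Whichever of the 6 mice was left out, Ltc4s lost the call (0.75 to 0.98). At an unadjusted p under 0.05 there were 4 of the 11, against 20.4% of all genes. They included Slc18a2 and Cma1, named after their values were seen. Both were measured in every WT mouse and in no KO mouse, so they passed the filter only through WT. Slc18a2 was at least 2.49-fold lower in KO, with KO 947 taken at its own reading. Cma1 was 2.01-fold lower, which is no bound, since its KO readings lay above the lowest measured level of their arrays. The others of the 4, Ltc4s and Alox5, were measured in every mouse and higher in KO, by 0.86 and 0.65. Among the 9 genes of the list measured in every KO mouse, KO 947 was the highest KO mouse in 8, as for Cpa3 and Mcpt4, whereas it was the highest in 47.2% of all genes so measured. This order was not particular to the list, since KO 947 was also the highest in 7 of 9 macrophage and 6 of 10 dendritic cell genes. In the mast cell surface list it was the highest in 2 of 7.

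The 12 Kit ligand and signalling genes had a median of -0.09, and 1 fell, the kinase Jak2, by 0.96 ± 0.19 (adjusted p = 0.0477, limma with Benjamini-Hochberg over all genes). Jak2 lost the call without WT 1, WT 2, WT 3, KO 948 or KO 949 (-1.09 to -0.93) and kept it without KO 947 (-0.80). In the other 5 lists no gene passed at an adjusted p under 0.05. At an unadjusted p under 0.05, which 20.4% of all genes reached, there were 3 of the 12 Kit ligand and signalling genes, 2 of 8 mast cell surface genes, 2 of 9 basophil genes, 4 of 10 eosinophil genes, 3 of 15 genes of IgE receptor signalling and 1 of 15 lineage transcription factors. The median differences of those other lists were -0.02, 0.12, 0.09, 0.10 and 0.15. The 4 eosinophil genes, named after their values were seen, were Il5ra, Ear6 and Ccr3, with differences of -1.34, -0.96 and -0.83, and Cebpe, with 0.87.

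Values of single genes in those lists ran in both directions. Among mast cell surface genes the receptor Mrgprb1 was measured in every WT mouse and no KO mouse, and passed the filter only through WT. It was at least 2.24-fold lower in KO, with KO 947 taken at its own reading, above the lowest measured level of that array. With normexp background correction the Mrgprb1 difference was -0.07. Il9r differed by -0.49 on its main probe and 0.74 on another. Basophil genes with the largest differences were the chemokine Ccl3, at 0.90 (0.60 with the slide as a block), and the cytokine Il4, at 0.83. With all mice Ccl3 did not pass the threshold (adjusted p = 0.0604, limma with Benjamini-Hochberg). Of the fits that leave out a mouse, it passed only without KO 947 (1.05, adjusted p = 0.0343, limma with Benjamini-Hochberg). In that fit no KO mouse shared the slide of the WT mice. In the eosinophil list, Prg3 differed by -3.25, but by -1.42 with the slide as a block and by -0.93 without KO 949. The interleukin-5 receptor chain Il5ra differed by -1.34, and by -0.64 with normexp background correction. Of the 9 eosinophil genes measured in every KO mouse, KO 948 was the highest KO mouse in 7, against 19.5% of all genes so measured, and KO 949 the lowest in 5, against 33.7%. These orders were not particular to the list. KO 949 was also the lowest in 8 of 15 IgE receptor signalling and 4 of 5 lymphocyte genes, but in 1 of 7 mast cell surface genes. KO 948 was the highest in 3 of 5 lymphocyte genes and in 2 of 9 basophil genes.

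In IgE receptor signalling the kinase Fyn differed by -0.92 (-0.45 with normexp background correction) and the adaptor Lcp2 by 0.57. Of the transcription factors, Fli1 differed by 0.83, but by 0.44 without KO 949 and 0.20 with the slide as a block, and Runx1 by 0.55, with a second Runx1 probe at -0.25. Of 14 mast cell granule and mediator genes on the array, Tph1 alone was well above background on no array. The same held for Enpp3 and Mrgprb2 of 10 mast cell surface genes, and for Il13 of 12 basophil genes.

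**Figure D5:**
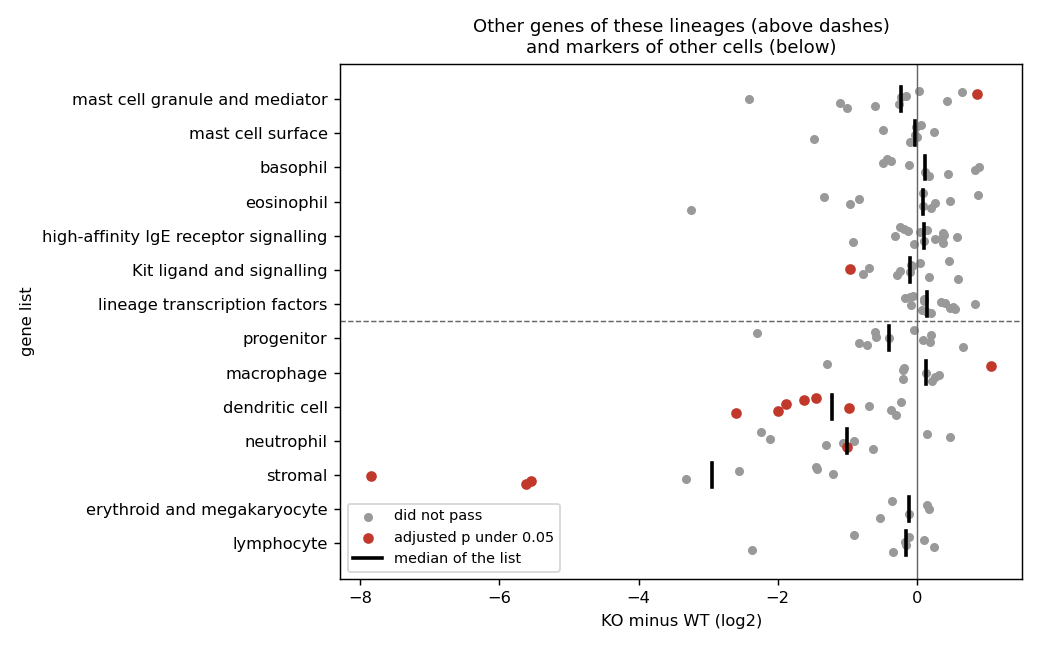
KO minus WT differences on the log2 scale of the listed genes of the same lineages (above the dashed line) and of other cell types. Each point is 1 gene, red where it passed an adjusted p under 0.05, and the bar is the median of the list. The medians of the 7 lineage lists lie between -0.22 and 0.15.

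Markers of other cell types moved with genotype beside the members, and their part in the members' values was not tested. Of 10 tested dendritic cell genes 6 fell, with a median of -1.22 and a summed linear level (multiples of the 75th percentile) of 319 to 348 on KO arrays and 477 to 561 on WT arrays. Of 9 neutrophil genes 1 fell, with a median of -1.01 and sums of 137 to 157 in KO and 204 to 220 in WT. Stromal genes fell in 3 of 8, with a median of -2.94 and sums of 4.10 to 5.82 in KO and 10.9 to 40.9 in WT.

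Summed macrophage markers overlapped between genotypes, at 391 to 440 on KO arrays and 394 to 449 on WT arrays, and 1 of 9 rose. The 11 progenitor, 5 erythroid and megakaryocyte, and 8 lymphocyte genes had no call, with medians of -0.40, -0.11 and -0.16. The low Mcpt8, Prss34 and Kit in KO stood beside lower dendritic cell, neutrophil and stromal sums. Such sums mostly follow their brightest probes. Among stromal genes that was Acta2, at a mean of 2.04 in KO and 3.47 in WT, which was not called. Mmp8, a bright neutrophil gene, was higher in KO by 0.47.

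By the sex labels as given, none of the 8 tested members differed between female and male mice at an adjusted p under 0.05 (limma with genotype as a covariate), and none had an unadjusted p under 0.05, against 0.00635% and 2.84% of all genes. The genotype by sex term was called for none of the 8, with 4 (Mcpt8, Gata2, Epx and Prg2) at an unadjusted p under 0.05, against 0.0255% and 7.11% of all genes. These terms rest on 1 mouse labelled female per genotype, WT 3 and KO 949, of which WT 3 went against its label. KO 948, labelled male, went against its label on 1 Xist probe (-3.15) but not on the other. The members were picked with their levels on these arrays in view, those of WT 3 and KO 949 included. Nothing is therefore read from the members' counts for either term.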

How the data were processed

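RNA of 6 bone marrow macrophage cultures, 3 Bach1 KO and 3 WT, was measured on 1 one-colour array each, and mice were grouped by the genotype in the labels. Spot intensity in the deposited scanner files came from Agilent Feature Extraction (10.7.3.1 per the file headers, 9.1 per the submitters' processing notes), with background subtraction and spatial detrending per the file headers. The authors' deposited series table holds log2 values of 3215 probes, centred per probe, with column medians of -0.10, -0.13 and -0.13 for KO 947, 948 and 949 and 0.14, 0.11 and 0.11 for WT 1, 2 and 3. It correlated with the scanner values and was used as an alternative only, since no source used here gives its scaling before the centring.

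Outlier spots (0.196% to 0.386%) were left out, spots of a probe averaged, and log2 signals reduced by the log2 75th percentile of the array. Probes well above background on at least 3 of 6 arrays were kept, with the brightest per gene. Of 55681 probes, 26413 matched a symbol through RefSeq. Genotypes were compared with limma 3.58.1 in R 4.3.3 (lmFit, eBayes, Benjamini-Hochberg, threshold 0.05), and 35 genes had a missing value. The procedure was tested on simulated data. Precision is limited by the number of arrays.

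Members and gene lists were chosen with earlier results of these data known. Named genes were all members, up to 4 called genes of each list or else the 2 with the largest difference, and the 8 genes nearest to each profile. Genes of the lists of other cell types are given as counts, medians and sums. Alternatives were other scalings, background correction, filters, probe rules and fits, a slide block, fixed or random, and leaving out each mouse.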

Additional observations from a re-analysis of the deposited data

How the results depend on the processing

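Mcpt8, Prss34, Kit, Epx and Prg2 kept a difference below 0 under every alternative run. The count of members past the threshold, 3 with all mice, was 1 with quantile normalization, 1 with no filter, 1 with the filter on all 6 arrays, 1 with the slide as a random block, and 0 with the slide as a block and on the slide that holds both genotypes. It ran from 0 to 2 without a mouse, being 0 without WT 1 or KO 949. The median of the 10 members was -1.61 with the slide as a block or on that slide alone, and -3.15 to -1.54 without a mouse. Calls among the other lineage genes, 2 with all mice, were 1 with quantile normalization, 0 with no filter, 4 with the filter on all 6 arrays, 0 with the slide as a block, as a random block or alone, 0 with sex as a covariate, and 6 with trended robust eBayes, and ran from 0 to 5 without a mouse. The filter on all 6 arrays drops Mcpt8 and Kit, and on the slide alone fewer samples enter. Otherwise the cause was not tested. Signs turned for Cpa3 (0.92) and Mcpt4 (0.11) with the slide as a block or alone, for Gata2 with median scaling (0.033) and without WT 3 (0.16, from -0.40 to 0.16 without a mouse), for Runx1 with normexp (-0.25) and for Il9r with the mean of its probes (0.13). Over all genes, 537 were called (33.5% higher in KO). Counts were 343 with quantile normalization, 275 with no filter, 255 with the random block, 305 with sex as a covariate, 84 with the slide as a block, 24 on the slide alone, 810 with trended robust eBayes, and 77 to 900 without a mouse. Median scaling gave 614 calls, 62.5% higher, with a median of 0.21 over all genes. The members called with no filter or with quantile normalization did not include Prss34 or Kit. No paired analysis was possible because the genotypes share no replicate number. Fcer1a, Ms4a2 and the KO values of Mcpt8 lie at or below background, so their differences are limited by signal.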
